A study of Rattus norvegicus with 6 samples.

Results

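A set of 10 genes of receptors and proteins that myeloid cells use to sense and take up debris were followed in rat brain tissue after a bleed: the TREM receptor genes Trem1, Trem2 and Trem3, their adaptor gene Tyrobp, the scavenger receptor genes Msr1 and Cd36, the lysosomal marker gene Cd68, and Spp1, Lpl and Gpnmb. They were chosen by name and with their log2 differences between the groups on these arrays already known, so those differences are a description and were not tested. Probes were assigned through an accession that is a RefSeq transcript of the gene. All 10 had a probe, 11 probes in all, and all 10 were among the 12965 named genes, within 22183 rows of genes and unnamed probes, that were measured well enough to test. Transcripts were measured on 6 single-colour arrays, 3 of brain tissue from sham-operated rats and 3 of tissue that the labels call peripheral, from rats with intracerebral hemorrhage (ICH). The series title places the injury studied around the hematoma, the blood clot left by the bleed. The label for age reads day 1 in both groups and names no starting point for the count. Strain, sex, the way the bleed was made and the dissection are not given in the sources used here.

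TREM receptors are immunoglobulin-type receptors of neutrophils, monocytes, macrophages and microglia that have almost no signalling part of their own. They pair in the membrane with the adaptor DAP12, encoded by Tyrobp, which recruits the kinase Syk. TREM-1 is known for amplifying inflammatory signals in neutrophils and monocytes, TREM-2 for lipid sensing and phagocytosis in microglia, and Trem3 is a receptor gene of rodents that is expressed in macrophages. In brain injury, myeloid cells that have taken up myelin and red cell debris are known to carry scavenger receptors and to express Spp1, Lpl and Gpnmb.

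Values are log2 signals relative to the 75th percentile of each array, as the authors deposited them, and are given relative to the mean of the 3 sham arrays, so 0 is the sham mean. The tissue was checked by its markers: 8 of 8 measured neuron markers, 7 of 7 astrocyte markers and 8 of 8 oligodendrocyte markers were well above background on all 6 arrays. Between 81.8% and 85.4% of spots per array were well above background and 0 spots were saturated. With 3 arrays in a group, precision is limited by their number. Over all rows, limma called 0 of 22183 (0% called) at an adjusted p under 0.05, and 3267 rows (14.7%) had an unadjusted p under 0.05. Without ICH 3 it called 33 rows and without ICH 2 it called 8. The median standard deviation of a row was 0.31 among ICH arrays and 0.14 among sham arrays, and the same medians over the 10 genes were 1.28 and 0.31.

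Of the upstream windows, the 250 bases before the start site that RefSeq gives on assembly GRCr8, 5 are shown here. Trem1, Trem3 and Trem2 are shown because they lie within 7 consecutive genes of chromosome 9 and their values went opposite ways. Cd68 and Gpnmb are shown because both held the AP-1 letters and exceeded every sham array on the same ICH arrays. All are written 5′ to 3′ on the strand of the gene, and capitals mark a match to one of the motifs searched.
Trem1 (chr9:20272470-20272719, minus strand): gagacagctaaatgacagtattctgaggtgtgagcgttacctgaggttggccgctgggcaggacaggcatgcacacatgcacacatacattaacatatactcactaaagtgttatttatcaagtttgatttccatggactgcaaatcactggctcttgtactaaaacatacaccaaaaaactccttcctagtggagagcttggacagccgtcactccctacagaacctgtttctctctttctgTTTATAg
Trem3 (chr9:20257615-20257864, minus strand): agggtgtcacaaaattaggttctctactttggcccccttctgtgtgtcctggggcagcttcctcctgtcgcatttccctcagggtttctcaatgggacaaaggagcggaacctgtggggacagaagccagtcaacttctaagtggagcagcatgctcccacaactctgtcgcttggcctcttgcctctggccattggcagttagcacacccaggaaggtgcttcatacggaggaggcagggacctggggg
Trem2 (chr9:20151780-20152029, minus strand): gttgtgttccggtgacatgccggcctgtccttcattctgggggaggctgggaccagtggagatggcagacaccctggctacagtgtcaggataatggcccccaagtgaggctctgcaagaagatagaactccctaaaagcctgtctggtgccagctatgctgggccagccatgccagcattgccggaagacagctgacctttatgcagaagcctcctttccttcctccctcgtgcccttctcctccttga
Cd68 (chr10:54882442-54882691, minus strand): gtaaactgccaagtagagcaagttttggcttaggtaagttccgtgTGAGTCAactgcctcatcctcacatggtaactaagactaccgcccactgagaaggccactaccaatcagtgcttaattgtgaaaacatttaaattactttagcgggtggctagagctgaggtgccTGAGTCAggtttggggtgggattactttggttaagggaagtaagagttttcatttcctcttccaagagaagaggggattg
Gpnmb (chr4:79340878-79341127, plus strand): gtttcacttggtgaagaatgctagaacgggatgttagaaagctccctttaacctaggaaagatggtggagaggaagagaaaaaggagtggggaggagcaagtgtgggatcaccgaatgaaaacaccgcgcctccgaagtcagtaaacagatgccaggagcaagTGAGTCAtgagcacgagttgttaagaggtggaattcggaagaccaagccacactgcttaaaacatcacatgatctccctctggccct
Of the 10 genes, 7 had a window in the RefSeq table, and Tyrobp, Msr1 and Lpl had none. Both strands were searched for the AP-1 letters TGANTCA (held by 6.34% of all 33469 windows), the PU.1 letters GAGGAAGT (2.04%), the C/EBP letters TTGCNNAA (9.22%), an NF-kB motif (1.3%), the E-box CACGTG (5.59%) and the TATA box TATAAA (12.9%). These motifs share no letters by overlap in the windows shown. Cd68 held TGAGTCA at 205 to 199 and again at 80 to 74 bases before the start, and Gpnmb held it at 87 to 81 bases. This pair was picked after letters and values were seen, and a link between letters and values was not tested. On the ICH array where neither exceeded sham, Cd68 lay below every sham array and Gpnmb within the sham range. Tyrobp and Msr1, which had the pattern of Cd68, had no window to search. Cd36 and Spp1, whose windows are not shown, held the TATA box letters and no AP-1 letters. Trem1 held TATAAA on the other strand, read here as TTTATA, at 7 to 2 bases before the start. The windows of Trem2 and Trem3 held none of the 6 motifs, which says only that these letters are not in these windows. A match is a description of the letters and no measurement of binding.

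The 3 TREM receptor genes did not move together. Trem1 and Trem3 were higher on all 3 ICH arrays and Trem2 was lower on all 3. Each of the 3 was read by 1 spot per array, so no spread between spots can be given for them. The plot of values by array shows this as the first 3 genes.

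**Figure D1:**
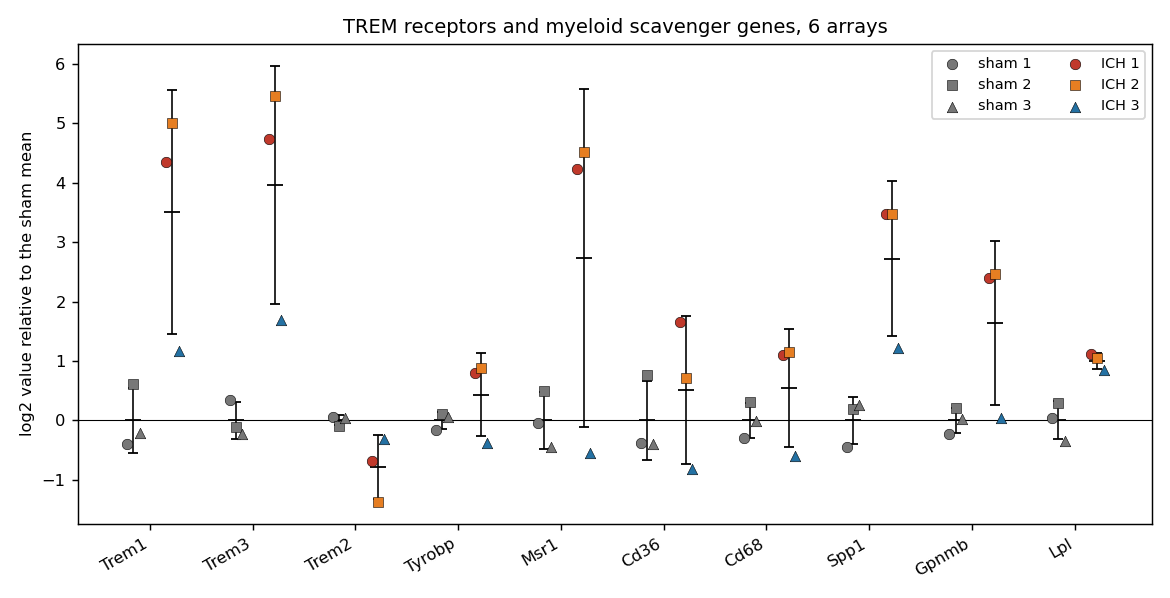
Log2 value of each of the 10 genes on each of the 6 arrays, relative to the mean of the 3 sham arrays (vertical axis), with sham arrays in grey and ICH arrays in colour; horizontal ticks are group means and bars are 1 standard deviation, n = 3. ICH 1 and ICH 2 lie far above sham for Trem1, Trem3, Msr1 and Spp1, ICH 3 lies lowest of the ICH arrays for 9 genes, and Trem2 is the 1 gene lower on all ICH arrays.

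Trem1, the receptor that amplifies inflammation in neutrophils and monocytes, stood at −0.40, 0.62 and −0.21 on sham 1 to 3 and at 4.35, 5.0 and 1.16 on ICH 1 to 3. The groups did not overlap, with ICH 3 lying 0.55 above the highest sham array. Trem1 was well above background on 0 sham arrays and on all 3 ICH arrays, so only a bound on the fold can be given. On the deposited values, with dim sham values raised as described below, the bound was 6.53-fold higher in ICH. Taken singly, ICH 1 to 3 gave bounds of 11.7-fold, 18.5-fold and 1.29-fold. For these bounds each dim sham value was raised to the lowest value on its array among probes with every spot well above background. The measured group means gave 3.51 ± 1.00 (log2 difference, ICH minus sham, ± SE, n = 3 arrays per group).

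Trem3, a gene next to Trem1 on the chromosome, stood at 0.35, −0.11 and −0.23 on sham 1 to 3 and at 4.74, 5.46 and 1.70 on ICH 1 to 3. It too was well above background on 0 sham arrays and 3 ICH arrays. On the deposited values the bound, made in the same way, was 7.24-fold higher in ICH, where the measured means gave 3.97 ± 0.95. Trem1 and Trem3 thus passed the filter on dim probes only through the ICH arrays, and any such row had to be higher there. The sizes rested on single arrays and on the background handling. Without ICH 3 the bounds were 14.7-fold for Trem1 and 15.9-fold for Trem3, and without ICH 2 they were 3.88-fold and 4.31-fold. With normexp background correction the measured log2 differences were 1.80 and 1.68. These are smaller folds than the bounds of 6.53-fold and 7.24-fold, so the bounds hold for the deposited values and the chosen floor only.

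Trem2, the lipid-sensing receptor of microglia, stood at 0.06, −0.10 and 0.04 on sham 1 to 3 and at −0.68, −1.37 and −0.32 on ICH 1 to 3. Every ICH value was under the lowest sham value, by 0.22 at the nearest, and the probe was well above background on all 6 arrays. The difference was −0.79 ± 0.28, with a sham mean 1.73-fold the ICH mean. Its sham arrays were tight, with an SD of 0.08 against 0.54 in ICH. Trem2 was lower under every scaling tried, from −0.84 with median centring to −0.38 with spike-in centring, where the median of all rows was 0.35. Without ICH 2 the difference was −0.50.

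Tyrobp, the gene of the shared adaptor DAP12, followed neither pattern. It stood at −0.16, 0.10 and 0.06 on sham 1 to 3 and at 0.80, 0.88 and −0.37 on ICH 1 to 3. The value was above the sham range on ICH 1 and ICH 2 and under it on ICH 3, so the groups overlapped, with a difference of 0.44 ± 0.35. The 2 spots of the probe differed little, with an SD between spots of 0.005 to 0.040 per array. Without ICH 3 the difference was 0.84, and without ICH 2 it was 0.22.

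Markers of resident microglia are set beside Trem2, since a bulk sample cannot tell fewer cells of a type from less RNA per cell. The list of homeostatic microglia markers had 9 measured genes, 6 lower and 3 higher, and a median of −0.40 against −0.05 for all rows. The list's medians were −0.33, −0.48 and −0.39 on ICH 1 to 3 and −0.02, 0.01 and 0.02 on sham 1 to 3. All 6 lower markers lay below every sham array, as 17.3% of all rows did. The ADP receptor gene P2ry12 stood at −0.86, −1.78 and −0.41 on ICH 1 to 3 and the surface protein gene Tmem119 at −0.72, −1.89 and −0.40, the same order of arrays as Trem2. That order was not particular to microglia markers. Some markers of other cell types had it and others did not, and those with it included Kdr (endothelium), Tubb3 and Gap43 (neurons) and Mag and Opalin (oligodendrocytes). P2ry12 differed by −1.01 ± 0.36 (limma adjusted p = 0.312), Tmem119 by −1.0 ± 0.39 (adjusted p = 0.326) and the orphan receptor gene Gpr34 by −0.82 ± 0.20 (adjusted p = 0.299), and these 3 were singled out after their values were seen.

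**Figure D2:**
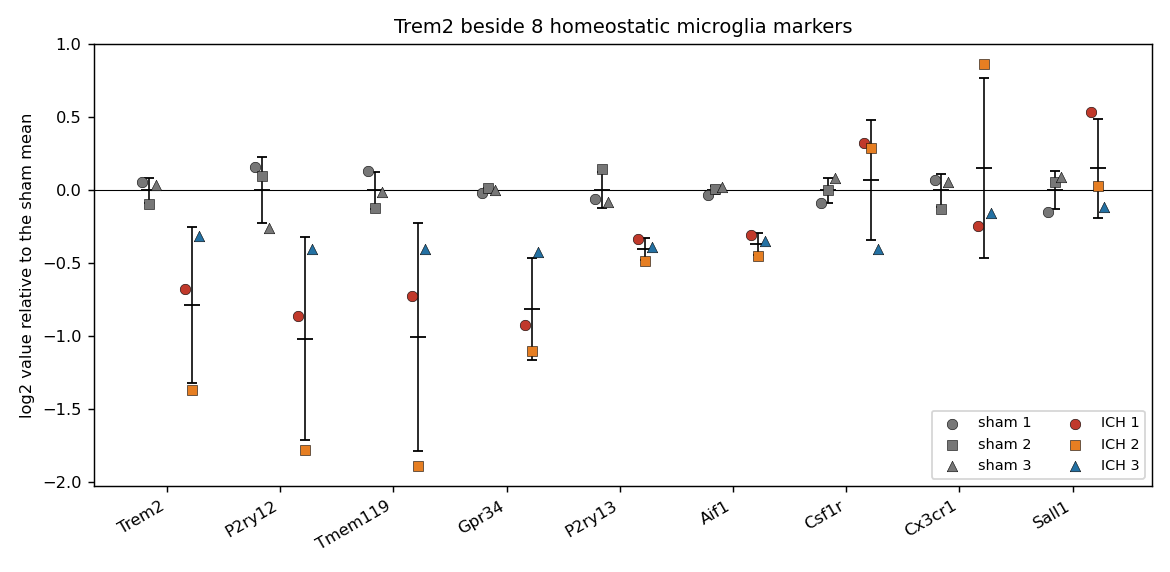
Log2 value relative to the sham mean (vertical axis) for Trem2 and for 8 of the 9 homeostatic microglia markers measured, on 3 sham arrays (grey) and 3 ICH arrays (colour), with group means and bars of 1 standard deviation, n = 3. Trem2, P2ry12, Tmem119 and Gpr34 share an order in which ICH 2 is lowest and ICH 3 nearest to sham, while Csf1r, Cx3cr1 and Sall1 overlap sham. Some markers of other cell types, not plotted, have that order too.

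By rule Aif1, a calcium-binding protein of microglia and macrophages, differed by −0.37 ± 0.12 (adjusted p = 0.299), where another probe gave −0.08. The 3 higher markers overlapped sham: the receptor genes Cx3cr1 and Csf1r stood at 0.16 and 0.07, and the transcription factor gene Sall1 at 0.15. None of the 9 was called (limma, adjusted p from 0.299 to 0.885), and 6 had an unadjusted p under 0.05. The summed signal of the 9 markers, in multiples of the 75th percentile, was 23.2 to 24.0 on sham arrays and 17.8 to 18.8 on ICH arrays, and all 9 were well above background on all 6 arrays. The direction of the list depended on the scaling: with spike-in centring 5 were higher and 4 lower, and its median was 0.003. The part of these markers in the lower Trem2 was not tested.

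Msr1 and Cd68 were above every sham array on ICH 1 and ICH 2 and below every one on ICH 3, while Cd36 was above every sham array on ICH 1 alone. Msr1, the class A scavenger receptor that takes up modified lipoproteins, stood at −0.05, 0.49 and −0.45 on sham 1 to 3. It reached 4.23 and 4.52 on ICH 1 and ICH 2, which is 18.8-fold and 23.0-fold the sham mean, and −0.54 on ICH 3, below every sham array. Its difference was 2.74 ± 1.35 with an SD of 2.84 among ICH arrays, and 4.38 without ICH 3. With normexp background correction the difference was 2.01, so the folds of this dim gene also rested on the background handling. One of the 2 spots of Msr1 was not well above background on ICH 3, and the spots there had an SD of 0.33.

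Cd68, a glycoprotein of the lysosomes of macrophages and microglia, stood at −0.30, 0.30 and −0.01 on sham 1 to 3 and at 1.1, 1.15 and −0.60 on ICH 1 to 3. The difference was 0.55 ± 0.50, and it was 1.12 without ICH 3 and 0.25 without ICH 2. Cd36, a receptor for fatty acids, oxidized lipoproteins and dying cells, stood at −0.38, 0.77 and −0.39 on sham 1 to 3 and at 1.65, 0.72 and −0.82 on ICH 1 to 3. Only ICH 1 lay above every sham array, since sham 2 stood slightly above ICH 2. The difference was 0.52 ± 0.67, and it was −0.052 without ICH 1, so Cd36 had no settled direction. A second probe of Cd36 gave 2.11, 1.74 and −0.47 on ICH 1 to 3 and −0.80, 0.85 and −0.05 on sham 1 to 3, a difference of 1.13 that also fell between overlapping groups.

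The remaining genes are known from lipid-laden, phagocytic myeloid cells, though a bulk sample does not show which cells made the RNA. Of these genes, Spp1 and Lpl were higher on all 3 ICH arrays. Spp1 encodes osteopontin, a secreted protein that binds integrins and CD44. It stood at −0.45, 0.20 and 0.25 on sham 1 to 3 and at 3.48, 3.47 and 1.22 on ICH 1 to 3, with ICH 3 lying 0.96 above the highest sham array. The ICH mean was 6.59-fold the sham mean (2.72 ± 0.64). Spp1 was read by 10 spots per array, whose SD was 0.04 to 0.09. Without ICH 3 the difference was 3.47.

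Lpl, lipoprotein lipase, which frees fatty acids from lipoproteins, stood at 0.04, 0.30 and −0.34 on sham 1 to 3 and at 1.11, 1.06 and 0.85 on ICH 1 to 3. The ICH mean was 2.01-fold the sham mean (1.01 ± 0.20). Of the 10 genes Lpl had the least spread among ICH arrays (SD 0.14, below its sham SD of 0.32), and ICH 3 lay 0.55 above the highest sham array. Its 10 spots per array had an SD of 0.17 to 0.29. With 1 array left out the difference ran from 0.84 to 1.15, and it was 1.41 with spike-in centring.

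Gpnmb, a membrane glycoprotein of phagocytes with lysosomal stress, stood at −0.23, 0.21 and 0.02 on sham 1 to 3 and at 2.40, 2.46 and 0.04 on ICH 1 to 3. ICH 1 and ICH 2 lay near 5.29-fold and 5.50-fold the sham mean, and ICH 3 lay within the sham arrays. The difference was 1.63 ± 0.66, and 2.43 without ICH 3. Both Spp1 and Gpnmb thus had nearly the same value on ICH 1 as on ICH 2, while on ICH 3 Spp1 lay above the sham range and Gpnmb within it.

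Counted together, 9 of the 10 genes had a higher ICH mean and 1 a lower one, with a median difference of 1.32 against −0.05 for all rows, or 0.78 over the 8 genes that were measured in sham. The groups did not overlap, with ICH higher, for 4 genes (Trem1, Trem3, Spp1 and Lpl), as in 10.3% of all rows, and with ICH lower for 1 (Trem2), as in 17.3%. For 4 others (Tyrobp, Msr1, Cd68 and Gpnmb) only ICH 1 and ICH 2 exceeded the sham range, as in 8.34% of all rows. A mean difference of 2-fold or more upward was found for 6 genes, and for 2.09% of all rows, and one of 2-fold or more downward for 0 of the 10 genes and 2.38% of all rows. Since the genes were chosen with these differences known, nothing is read from these shares. Among all rows ordered from the highest difference, Msr1 was at place 37, Spp1 at 39, Gpnmb at 155 and Lpl at 458, and Trem2 was at place 1103 from the lowest, with no place given for Trem1 and Trem3, whose sham values were not above background. Without ICH 3 the groups did not overlap upward for 8 of the 10, as in 18.6% of all rows.

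**Figure D3:**
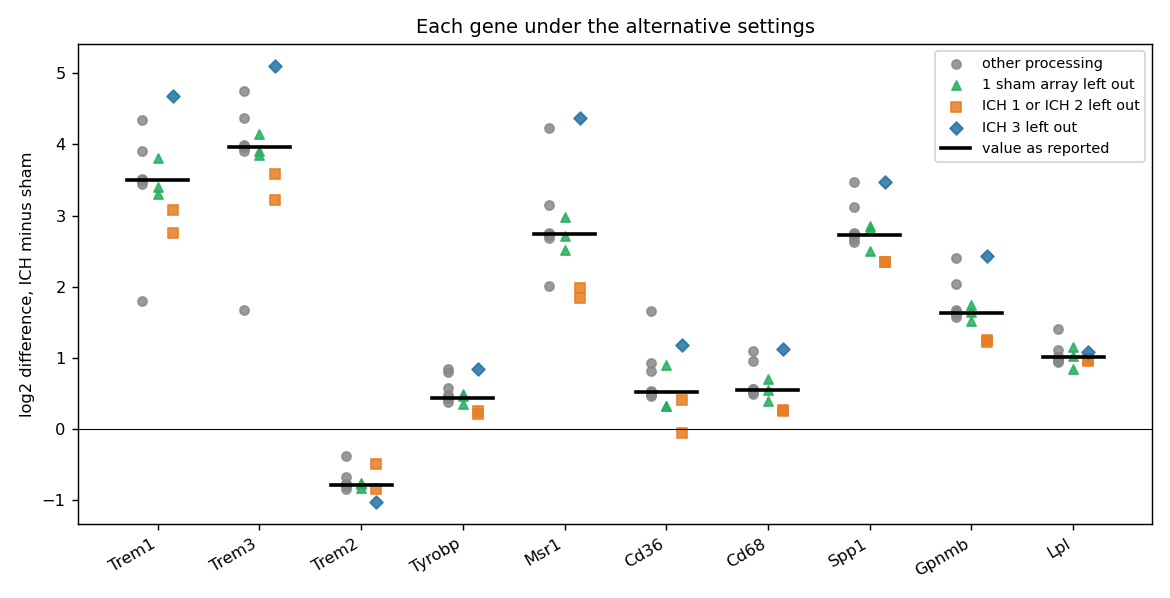
Log2 difference, ICH minus sham, of each of the 10 genes (vertical axis) as reported (black line) and under each alternative: other processing (grey circles), 1 sham array left out (green triangles), ICH 1 or ICH 2 left out (orange squares) and ICH 3 left out (blue diamonds). Leaving out ICH 3 raised Msr1 from 2.74 to 4.38, Trem2 stayed below 0 and Cd36 crossed 0 without ICH 1, while the low grey points of Trem1 and Trem3 are normexp background correction.

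Genes with the most similar values over the 6 arrays were found by the root mean square difference, on the log2 scale relative to each gene's sham mean, among 12223 other named genes well above background on all 3 ICH arrays. For Trem2 the nearest was Prom1, which encodes the membrane glycoprotein prominin-1, at 0.02: it stood at −0.68, −1.41 and −0.30 on ICH 1 to 3. Tril, a partner of Toll-like receptors, and Akr1c19, of the aldo-keto reductase family, followed at 0.06 each. For Trem1 the nearest were the pentraxin gene Ptx3 (0.50), the protease gene Mmp3 (0.53) and Trem3 (0.54). For Trem3 they were the non-coding RNA gene H19 (0.39), Trem1 (0.54) and Ptx3 (0.57). Mmp3 (0.40), the leukocyte surface gene Cd52 (0.57) and the AP-1 subunit gene Fosl1 (0.61) lay nearest to Spp1. Lpl had the carbonic anhydrase gene Car12 (0.17), the zinc finger gene Zfp189 (0.17) and the glutathione transferase gene Gstm6 (0.18). For Trem1 and Trem3 the distances and their order rest on sham values not above background. All 6 arrays share 1 slide, and likeness over 6 arrays is a description.

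Around the TREM genes on chromosome 9, the order in the RefSeq table is Treml1, Trem2, a pair of genes without probes, Treml2, Treml4, Trem3 and Trem1. Treml1, which encodes a TREM-like receptor of platelets and lies beside Trem2, differed by −0.90 ± 0.36 (limma adjusted p = 0.338), with all ICH values below all sham values. Treml2, a receptor of lymphocytes and myeloid cells, differed by −0.20 ± 0.17 (adjusted p = 0.575). Of the relatives outside the locus, the CD300 gene Cd300lf, an inhibitory lipid receptor, differed by 0.10 ± 0.23, and Cd300le by 1.86 ± 0.57 (adjusted p = 0.299), at 2.58, 2.52 and 0.49 on ICH 1 to 3. Of 10 such relatives 5 were measured, 3 higher and 2 lower (2 and 3 without ICH 2), and 0 were called by limma, where 2 had an unadjusted p under 0.05.

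Genes listed for TREM and DAP12 signalling were mostly higher, again on ICH 1 and ICH 2. The list is not only of genes downstream of DAP12, since it also holds a ligand and another adaptor. The measured genes numbered 20, of which 19 were higher and 1 was lower, and their median was 0.42 against −0.05 for all rows. The list's medians on ICH 1 to 3 were 0.60, 0.64 and −0.24, and on sham 1 to 3 they were −0.11, 0.11 and 0.05. limma called 0 of the 20 (adjusted p from 0.320 to 0.942), and 1 had an unadjusted p under 0.05, the Src-family kinase gene Fgr (1.93 ± 0.71). The kinase gene Syk, which DAP12 recruits, differed by 0.46 ± 0.27, where other probes gave −0.07 and 0.61. By rule Fcer1g, another adaptor that recruits Syk, stood at 0.13 ± 0.29 and Lat2, a scaffold downstream of it, at −1.27 ± 0.56, the 1 lower gene. Pglyrp1, which encodes a ligand of TREM-1, stood at 0.23 ± 0.26. Without ICH 2, 15 of the 20 were higher and the median was 0.22, and without ICH 3 it was 0.67.

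Cytokine genes that TREM-1 signalling is known to amplify were all higher in mean, 9 of 9 measured, and 0 were called (limma, adjusted p from 0.299 to 0.655), where 1 had an unadjusted p under 0.05. The list's median was 2.20, with 2.96, 4.15 and −0.52 on ICH 1 to 3 and −0.66, 0.86 and −0.06 on sham 1 to 3. Interleukin-1 beta (Il1b) reached 2.96 and 4.36 on ICH 1 and ICH 2 and was at 0.01 on ICH 3 (2.45 ± 1.11, adjusted p = 0.365). By rule Ccl4, a chemokine for monocytes, differed by 1.37 ± 1.30, and Csf3, a growth factor of neutrophils, by 0.33 ± 0.27. The median was 3.66 without ICH 3 and 1.22 without ICH 2.

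Other scavenger receptor genes were mixed. Of 15 measured, 9 were higher and 6 lower, the median was 0.16, and 0 were called (limma, adjusted p from 0.299 to 0.934), where 2 had an unadjusted p under 0.05. The median was −0.026 without ICH 2 (7 higher, 8 lower), 0.026 without ICH 1 and 0.57 with spike-in centring (13 higher, 2 lower). Lrp1, a large endocytic receptor, differed by 0.16 ± 0.12, and Scara3 by −0.03 ± 0.13, where another probe gave 1.1. Cd163, the receptor for hemoglobin bound to haptoglobin, reached 2.02 and 1.59 on ICH 1 and ICH 2 and was at −0.18 on ICH 3 (1.14 ± 0.56, adjusted p = 0.383). Scara5, a ferritin receptor, was higher on all 3 ICH arrays (1.52 ± 0.41, adjusted p = 0.299), where another probe gave 0.39. Marco, a class A receptor like Msr1, stood at −0.05 ± 0.18.

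**Figure D4:**
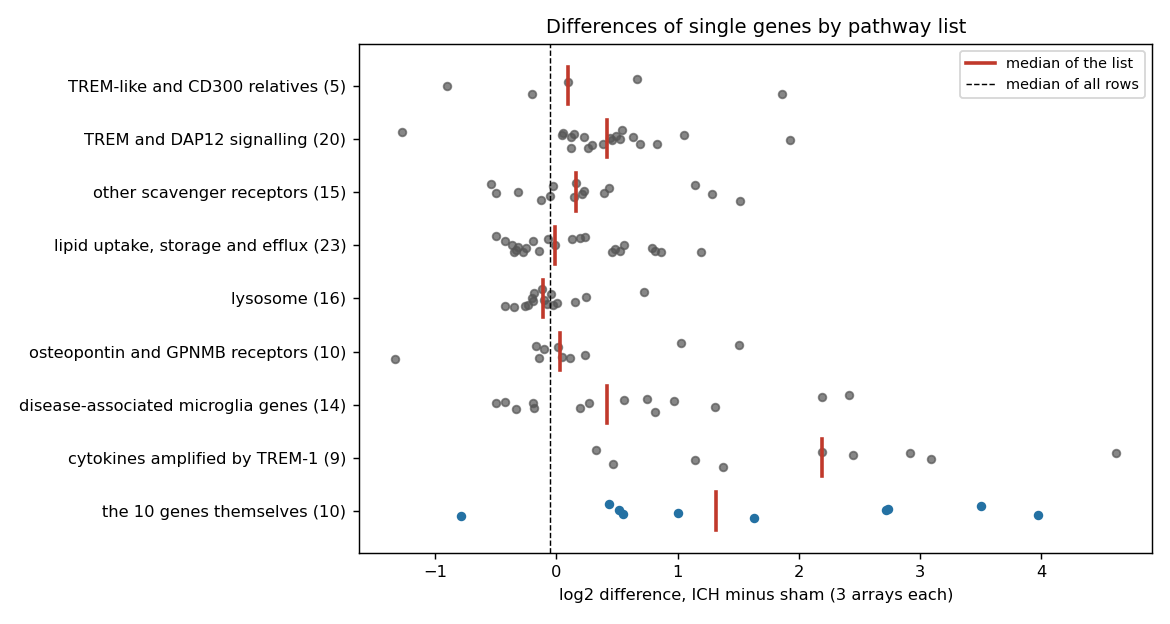
Log2 difference, ICH minus sham, of each measured gene (points; horizontal axis) in the 8 pathway lists and for the 10 genes themselves, with the median of each list (red bar) and of all rows (dashed line at −0.05); numbers in parentheses are genes measured. Cytokine genes lie furthest right with a median of 2.20, lipid and lysosome genes lie around the median of all rows, and 19 of 20 signalling genes lie above 0.

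Lipid handling genes around Lpl went both ways, with 11 higher and 12 lower of 23 measured and a median of −0.01. limma called 0 of them (adjusted p from 0.299 to 0.992), and 3 higher and 3 lower had an unadjusted p under 0.05. Gpihbp1, which carries lipoprotein lipase to the capillary wall, was higher on all 3 ICH arrays, at 0.81, 0.55 and 1.02 (0.79 ± 0.22, adjusted p = 0.299). By rule Apoe, which encodes the main apolipoprotein of the brain and a ligand of TREM-2, differed by −0.42 ± 0.15 (adjusted p = 0.310), and the fatty acid binding protein gene Fabp5 by −0.34 ± 0.15. Plin2, which coats lipid droplets, stood at 1.24, 1.49 and −0.29 on ICH 1 to 3. With spike-in centring 21 of the 23 were higher, with a median of 0.40 near the 0.35 of all rows.

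Most of the other lysosomal genes had a lower ICH mean on this scale. Of 16 measured, 4 were higher and 12 lower, the median was −0.11, and 0 were called (limma, adjusted p from 0.299 to 0.991), where 2 had an unadjusted p under 0.05. The cathepsin genes Ctsb and Ctss differed by −0.18 ± 0.12 and −0.35 ± 0.13, and the lysosomal membrane gene Lamp1 by 0.01 ± 0.18. The direction of this list depended on the scaling, with 10 of 16 higher under quantile normalization and 15 of 16 with spike-in centring, and without ICH 2 it was 7 higher and 9 lower. The protease gene Ctsz stood at 1.13, 1.5 and −0.46 on ICH 1 to 3 and the progranulin gene Grn at 0.51, 0.39 and −0.17, the order of signs that Cd68 had. Mitf and Tfeb, transcription factors known to drive Gpnmb, stood at −0.23 ± 0.20 and 0.16 ± 0.23, where other probes of Mitf gave 0.12 and 0.29.

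Receptors of osteopontin and GPNMB were 6 higher and 4 lower of 10 measured, with a median of 0.03, or −0.02 with median centring. None was called (limma, adjusted p from 0.322 to 0.968), where 1 had an unadjusted p under 0.05. Integrin beta 5 (Itgb5) differed by 0.05 ± 0.21 and syndecan-4 (Sdc4) by −0.10 ± 0.20. The 4 probes of Cd44, an osteopontin receptor of leukocytes, disagreed, at −1.33 for the one used and 1.43, 0.24 and 0.03 for the others. Of 14 other genes of the microglial state called disease-associated, 9 were higher and 5 lower (median 0.42). The median was 0.21 without ICH 1, 0.25 without ICH 2, 0.27 without sham 1 and 0.68 without ICH 3. Of the 14, 0 were called by limma (adjusted p from 0.299 to 0.617), where 2 had an unadjusted p under 0.05. Cd52 was higher on all 3 ICH arrays (2.41 ± 0.61), while Igf1, a growth factor of such microglia, stood at −0.50 ± 0.33, and by rule Apoe and Ctsb are as given above.

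Markers of neutrophils and of monocytes and macrophages are set beside these values. The second list does not separate cells that came from the blood from macrophages resident in the brain. Of 9 neutrophil markers measured, 5 were higher and 4 lower (median 1.47, or 0.67 without ICH 2), at 1.24, 3.09 and −0.11 on ICH 1 to 3. Their summed signal, in multiples of the 75th percentile, was 0.16 to 0.34 on sham arrays and 0.34 to 1.63 on ICH arrays. Cxcr2, Mmp8 and Elane, which define neutrophils, were well above background on fewer than 3 arrays, and Ltf on 0 ICH arrays. By rule S100a8, a calcium-binding protein of neutrophils, differed by 2.05 ± 1.03 and the growth factor receptor gene Csf3r by 1.47 ± 0.72. The 4 lower markers were Retnlg (−0.92 ± 0.73), Ngp (−0.76 ± 0.54), Ltf (−0.46 ± 0.22) and Camp (−0.02 ± 0.39), so the list did not move together. Of 11 monocyte and macrophage markers 10 were higher and 1 lower (median 0.54, with 0.17 without ICH 2, 0.91 without ICH 3 and 0.32 with normexp), at 0.77, 1.59 and −0.45 on ICH 1 to 3, with a summed signal of 6.40 to 7.42 on sham arrays and 5.09 to 12.0 on ICH arrays. By rule the lysozyme gene Lyz2 differed by −0.45 ± 0.15, below sham on all 3 ICH arrays, and the matrix gene Vcan by 0.13 ± 0.28. limma called 0 genes of either list, where 2 neutrophil and 2 monocyte and macrophage markers had an unadjusted p under 0.05. The 2 neutrophil markers were the protease gene Mmp9, well above background on 0 sham arrays, and the chemokine receptor gene Cxcr1, on 1 sham array, so both passed the filter through the ICH arrays. The part of these cells in the values of Trem1, Trem3, Msr1, Spp1 and the others was not tested.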

How the data were processed

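Per the labels' protocols, TRIzol was used to prepare total RNA, which was amplified linearly and labelled with Cy3. Per the file headers, the deposited intensity of each spot was read with Agilent Feature Extraction 11.5.1.1 and background-subtracted within the array; the submitters' processing notes name version 10.7. Each spot carries flags with the value 0 or 1 as other columns, per the file headers. The authors' deposited log2 values equal, within 0.001 after centring for 98.5% to 99.3% of probes, the mean log2 intensity of a probe's spots minus the 75th percentile of the array, worked out from the values since no source states it. These log2 values were used.

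A probe was kept if at least 0.5 of its spots were well above background on at least 3 of 6 arrays. Accessions were matched to RefSeq transcripts of GRCr8 (18355 of 30367 probes had 1 symbol, 0 several, 12012 none). For each gene the kept probe with the highest mean was used. Tests used limma 3.58.1 in R 4.3.3 (lmFit, eBayes, two-sided) with Benjamini-Hochberg adjustment over all 22183 rows, and were tested on simulated data. SEs are limma's. Tables used pandas 2.3.3 and figures matplotlib 3.10.9.

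The genes, the lists of genes and cell type markers and the naming rule (in each list at most 2 called genes, or with none called the 2 with the highest mean, and for likeness the 3 nearest genes) were chosen with earlier results of these data known. Other named genes were chosen after their values were seen. Marker lists of lymphocytes (median 0.05), erythroid cells (0.22), endothelium (−0.45), meninges (−0.39), neurons (−0.14), astrocytes (−0.35) and oligodendrocytes (−0.31) had 0 genes called by limma. The direction of 5 of these lists was not settled: the median of lymphocytes was −0.56 without sham 1 and that of oligodendrocytes 0.089 without ICH 2, and with spike-in centring those of meninges, neurons and astrocytes were 0.015, 0.27 and 0.054. Other probes of Hba-a1 and Hbb gave 2.47 and 2.41, against 0.22 and 0.64. Alternatives were other background handling, scaling, filters, probe rules, variance models, blocks and leaving out each array. Protein and probe sequences were not used here, and 1 gene that the naming rule gives is not reported here.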

Additional observations from a re-analysis of the deposited data

How the results depend on the processing

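Over all rows limma called 0 rows as reported and also with the scanner values, quantile normalization, median centring, no filter, the mean of a gene's probes and either block, against 3 with normexp background correction, 3 with spike-in centring, 4 with the filter on all 6 arrays and 4 with an intensity trend and robust variance. With 1 array left out it called 0 to 33. The share of higher rows among those with an unadjusted p below 0.05 was 39.0% as reported, 27.1% with median centring and 94.8% with spike-in centring. The count of the 10 genes with all ICH values above all sham values was 4, or 5 with spike-in centring, 2 with the filter on all 6 arrays, which drops Trem1 and Trem3, and 9 when the slide's row was the block, where ICH 1 alone stands against sham. With 1 array left out it was 4 to 8, and variance models and the replicate block do not bear on it. Their median difference ran from 1.1 to 1.81 with 1 array left out. Of 168 values of single genes under alternatives, 5 moved by more than 1 SD between replicates and 1 changed sign: with 1 array left out Cd36 ran from −0.052 (without ICH 1) to 1.19 (without ICH 3), and it was 1.65 with the slide row as a block. The variance models, the replicate block and the other filters return the same differences by construction, as does the mean of a gene's probes for every gene but Cd36. The SD used here holds the wide ICH spread, so Msr1 going from 2.74 to 4.38 without ICH 3 did not count as moved. The replicate numbers did not pair the arrays: deviations of same-numbered arrays correlated at −0.19, −0.01 and 0.07, and 2 of 6 arrays correlated best with their own number. With the replicate block 2413 rows had an unadjusted p under 0.05, against 3267 without it, and the called count stayed at 0. Trem1 and Trem3 in sham were limited by signal over background.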
